A study of Mus musculus with 5 samples.

Results

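The comparison set mouse CD4+25- T cells that had been activated for 3 days against CD4+25- T cells with no activation in their label, called naive here after the title of the series. CD4+25- cells are helper T cells from which the CD25-positive fraction, rich in regulatory T cells, is left out. It consists of 2 of the series' 5 arrays, picked by their labels alone. On each, total RNA of activated cells shared a microarray of 2 channels with RNA of naive cells. One array held the activated RNA in Cy5 and the naive RNA in Cy3 (the Cy5 array here), and the other held the reverse (the Cy3 array). The remaining arrays held cells activated overnight (1 array) or for 10 days (2 arrays). Nothing used here gives the mouse strain, age, pooling of animals, stimulus or culture conditions, or says whether the arrays of the pair held separate RNA extracts. The pair was therefore counted as 1 replicate and no test was made within it. With only 2 arrays a sign-flip permutation test cannot go below p = 0.5 (exact, two-sided).

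Each array measured 171 microRNA probes, all described here, among 178 probes in all. The values are deposited log ratios of unstated log base and numerator. They were read as log2 of Cy5 over Cy3, the usual order for such tables and the one that matches the "Activated - Normal" wording of the array titles wherever activated RNA is in Cy5. The Cy3 array was then multiplied by -1, so that a positive value means more in activated cells. Should Cy3 be the numerator, every direction below turns. No protein-coding marker of T cells is among the probes, so the labelled cell type could not be checked that way. The microRNA in a probe was read from the number in its ID. A platform annotation gave 1 gene for 61 of the probes and several for 1. Probes of near-identical microRNAs may share signal.

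MicroRNAs are short RNAs, cut by Drosha and Dicer from hairpin transcripts, that guide Argonaute proteins to messenger RNAs. Recognition rests mainly on the seed, bases 2 to 8 of the mature strand, so microRNAs with the same seed form families with overlapping targets. In T cells, activation through the antigen receptor is known to induce miR-155 and to lower miR-150. Activated T cells also enlarge, divide and switch to glycolysis, so microRNAs tied to growth, hypoxia signalling and p53 are of interest in them. In bulk RNA, a change in the make-up of the cells and a change within each cell cannot be told apart.

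The mature sequences of the microRNAs that led the day 3 profile are shown first, because they show which of them share a seed. All are RefSeq sequences of GRCm38.p6, written 5′ to 3′ with the seed in capitals. Of the 171 probes, 102 were matched to a mature sequence. The arm is the one that the plain name denoted in older nomenclature, since most IDs name no arm. The leaders on the higher side were the following.
miR-210-3p (2org-210): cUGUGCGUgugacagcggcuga
miR-31-5p (1org-31): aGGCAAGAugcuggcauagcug
miR-214-3p (2org-214): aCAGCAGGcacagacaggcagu
miR-155-5p (1org-155): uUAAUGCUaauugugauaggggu
miR-212-3p (2org-212): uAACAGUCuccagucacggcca
miR-132-3p (1org-132): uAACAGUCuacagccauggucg
miR-183-5p (1org-183): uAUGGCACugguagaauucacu
miR-96-5p (1org-96): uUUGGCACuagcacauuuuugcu
miR-34a-5p (2org-34 and 1org-34c): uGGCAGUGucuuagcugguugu

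On the lower side several of the leaders shared a seed with other probes. Shown here, to make these shared seeds visible, are matched members of the miR-26, miR-15/16, miR-30 and miR-181 families and both arms of the miR-142 and miR-181a-1 hairpins; miR-150, miR-195, miR-30b and miR-30d are given by name.
miR-26a-5p (1org-26a): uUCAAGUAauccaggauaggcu
miR-26b-5p (1org-26b): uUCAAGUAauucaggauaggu
miR-15a-5p (1org-15a): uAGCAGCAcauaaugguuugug
miR-15b-5p (1org-15b): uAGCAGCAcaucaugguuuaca
miR-16-5p (1org-16): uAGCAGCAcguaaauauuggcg
miR-30c-5p (1org-30c): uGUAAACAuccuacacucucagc
miR-30e-5p (1org-30e): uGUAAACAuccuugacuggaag
miR-181a-5p (1org-181): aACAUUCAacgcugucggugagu
miR-181b-5p (2org-181b): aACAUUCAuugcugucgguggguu
miR-181c-5p (2org-181c): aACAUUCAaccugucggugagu
miR-181a-1-3p (2org-213): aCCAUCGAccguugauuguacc
miR-142a-3p (1org-142-as): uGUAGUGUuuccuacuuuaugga
miR-142a-5p (1org-142-s): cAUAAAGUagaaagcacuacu

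The let-7 family, 9 probes with 1 seed, was the most populous of them.
let-7a-5p (1org-7a): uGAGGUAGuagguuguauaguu
let-7b-5p (1org-7b): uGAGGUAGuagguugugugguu
let-7c-5p (1org-7c): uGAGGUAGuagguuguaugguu
let-7d-5p (1org-7d): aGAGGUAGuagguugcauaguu
let-7e-5p (1org-7e): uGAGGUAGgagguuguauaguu
let-7f-5p (1org-7f): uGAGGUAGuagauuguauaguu
let-7g-5p (1org-7g): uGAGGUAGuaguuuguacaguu
let-7i-5p (1org-7i): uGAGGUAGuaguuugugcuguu
miR-98-5p (1org-98): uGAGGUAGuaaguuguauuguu

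The arrays of the pair gave the same sign for 123 probes, of which 93 were above 0 on both and 30 below 0 on both. Of the 48 with opposite signs, 41 were above 0 on the Cy3 array alone. Agreement in sign was lower after centring, with 65 probes of opposite sign. The imbalance moved with the array medians, which were 0.20 on the Cy5 array and 1.42 on the Cy3 array. Across probes, which are not independent replicates, the turned arrays correlated at r = 0.66. Once each array had its own median subtracted (centring), the typical (median) distance between the arrays was 0.73 on the log2 scale and the 95th percentile 2.81. The size rule asked for a mean of the 2 arrays at least 1 from 0 (2-fold) and 1 sign on both. By this rule 65 probes (38.0%) were higher and 22 (12.9%) lower. Centring takes 0.81 off every mean and left 26 (15.2%) higher and 34 (19.9%) lower, so which side had more calls depended on it. Since centring lowers every value on both arrays, the 26 had to be among the 65 and the 22 among the 34. In limma on all 5 arrays, fitted with time and dye, 67 probes (39.2%) were higher and 22 (12.9%) lower at a Benjamini-Hochberg adjusted p below 0.05. With 1 residual degree of freedom per probe limma gave every probe the same SE of 0.45, so its p-values restate the size of the mean. That degree of freedom holds only the difference in dye effect between the day 3 and day 10 pairs. The distance between the arrays of a pair goes largely into the dye term, and the spread of the naive cells is left out. Probe 2org-224, at 6.22 and -0.40, was thus among those that limma called higher.

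**Figure D1:**
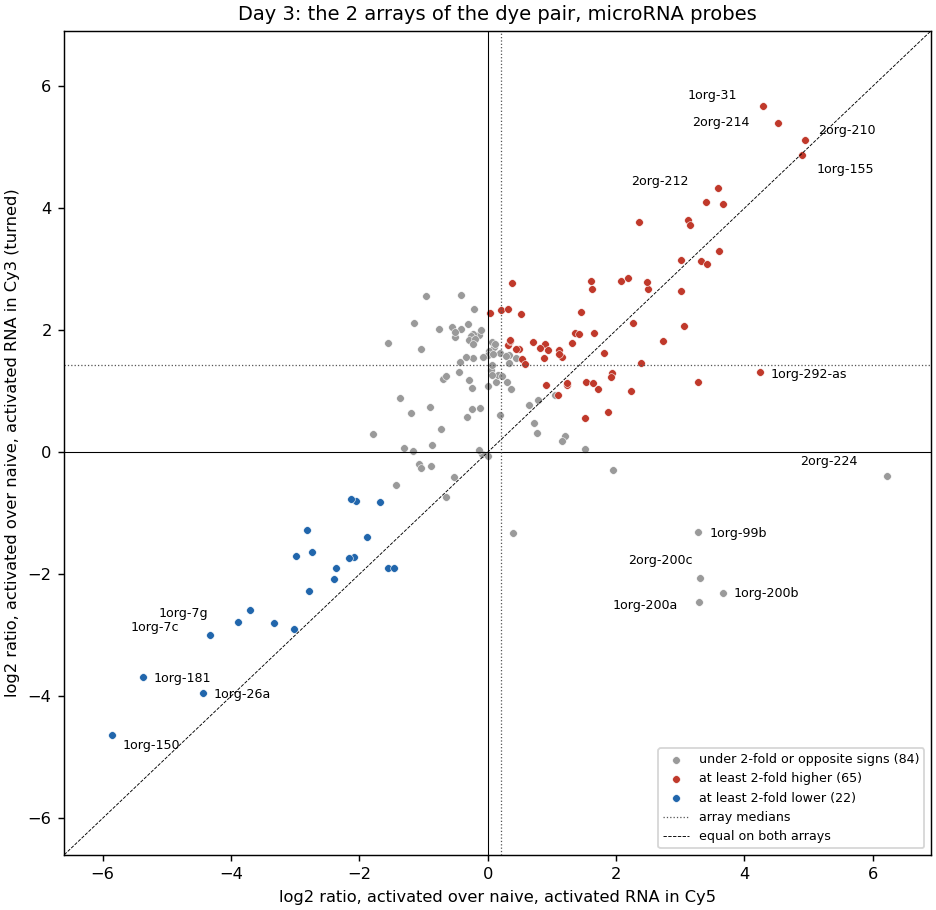
Log2 ratios of the 171 microRNA probes on the Cy5 array (horizontal) and the turned Cy3 array (vertical), with the array medians dotted and the line of equal values dashed. The 65 probes counted as higher lie at the upper right and the 22 counted as lower at the lower left. Some lie far from the diagonal, such as 1org-292-as at 4.24 and 1.31. Probes 1org-200a, 1org-200b, 2org-200c, 1org-99b and 2org-224 lie at the lower right, above 0 on the Cy5 array only.

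At day 3 the probes furthest above naive cells were those of miR-210, miR-31, miR-214 and miR-155, each about 30-fold higher as deposited. MiR-210, known as a target of hypoxia-inducible factor, was at 4.94 on the Cy5 array and 5.12 on the Cy3 array (2org-210, mean 5.03, 32.8-fold). MiR-31 was at 4.30 and 5.68 (1org-31, mean 4.98, 31.7-fold). Probe 2org-214 was at 4.53 and 5.40 (mean 4.96, 31.2-fold). All of these values lay above 4, and for each probe the distance between the arrays was far smaller than its mean. MiR-155, processed from a non-coding transcript that antigen receptor signals induce, was at 4.89 and 4.87 (1org-155, mean 4.88, 29.5-fold). It stood at almost the same height on both arrays, and after centring, which shifts the arrays unequally, at 4.69 and 3.45. On GRCm38.p6 its mature strand lies at chr16:84714143-84714165 on the plus strand, and those of miR-210 and miR-31 at chr7:141221407-141221428 and chr4:88910614-88910635, both on the minus strand.

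The neighbouring and seed-sharing pair miR-132 and miR-212 followed. MiR-212 was at 3.58 and 4.32 (2org-212, mean 3.95, 15.5-fold) and 1org-132 at 3.40 and 4.09 (mean 3.74, 13.4-fold). Both microRNAs are known as targets of the transcription factor CREB. Their genes lie in 1 cluster at chr11:75173388-75173747 on the plus strand, and the pair's means were 0.21 apart, less than either probe's distance between arrays. The arrays gave the same order for the pair, with 2org-212 above 1org-132 on each.

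Next came probes of the cluster of miR-183, miR-96 and miR-182, and of miR-34. Probe 1org-183 was at 3.66 and 4.07 (mean 3.87) and miR-96 at 3.14 and 3.72 (1org-96, mean 3.43). The probe 1org-298, which the annotation ties to several genes and which is therefore left unnamed, was at 3.11 and 3.81 (mean 3.46). For miR-34, a known p53 target, probe 2org-34 was at 3.60 and 3.30 (mean 3.45), and 1org-34c, annotated as miR-34a, at 3.00 and 3.14 (mean 3.07). The remaining miR-34 probes were much closer to the array medians, with 1org-34b at 0.44 and 1.70 and 1org-34a, annotated as miR-34c, at 0.33 and 1.46. Probes 1org-297 (mean 3.25) and miR-23b (1org-23b, mean 3.23) completed the 12 highest, and all 12 remained at least 2-fold higher after centring.

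On the lower side stood miR-150, a microRNA of mature resting lymphocytes that restrains Myb. Probe 1org-150 was at -5.86 on the Cy5 array and -4.63 on the Cy3 array, a mean of -5.24 (37.9-fold lower), the largest distance from 0 of any microRNA probe. After centring the arrays were equal to within 0.005, at -6.06 and -6.05. Probe 1org-181 followed at -5.37 and -3.69 (mean -4.53, 23.1-fold lower). MiR-181a is known for tuning antigen receptor sensitivity in developing T cells. In both probes the Cy5 array was the lower of the pair, as it was for all 12 lowest probes as deposited. The Cy5 array also had the lower median. After centring it was the lower one only for 1org-150, 1org-181, 1org-7c and 1org-16 among the 12.

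The miR-26 probes were both far below naive cells, at -4.44 and -3.94 for 1org-26a (mean -4.19) and at -3.03 and -2.90 for miR-26b (1org-26b, mean -2.96). The others among the 12 lowest were the let-7 probes 1org-7c (-4.33 and -2.99, mean -3.66), 1org-7g (-3.90 and -2.79, mean -3.35) and 1org-7b (-3.33 and -2.81, mean -3.07), the miR-30 probes 1org-30b (mean -3.14), 1org-30c (mean -2.53) and 1org-30d (mean -2.24), 1org-16 (mean -2.34) and 1org-142-as (mean -2.19). Let-7 is known for restraining growth genes, miR-16 for restraining cyclins, and miR-142 for its restriction to blood cells. The 12 lowest were picked among probes with 1 sign on both arrays, so none could be above 0 on either. In limma over 5 arrays each of the 24 named extremes, all at least 2.19 from 0, had an adjusted p of 1.1e-05 or below, with the limits given above.

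**Figure D2:**
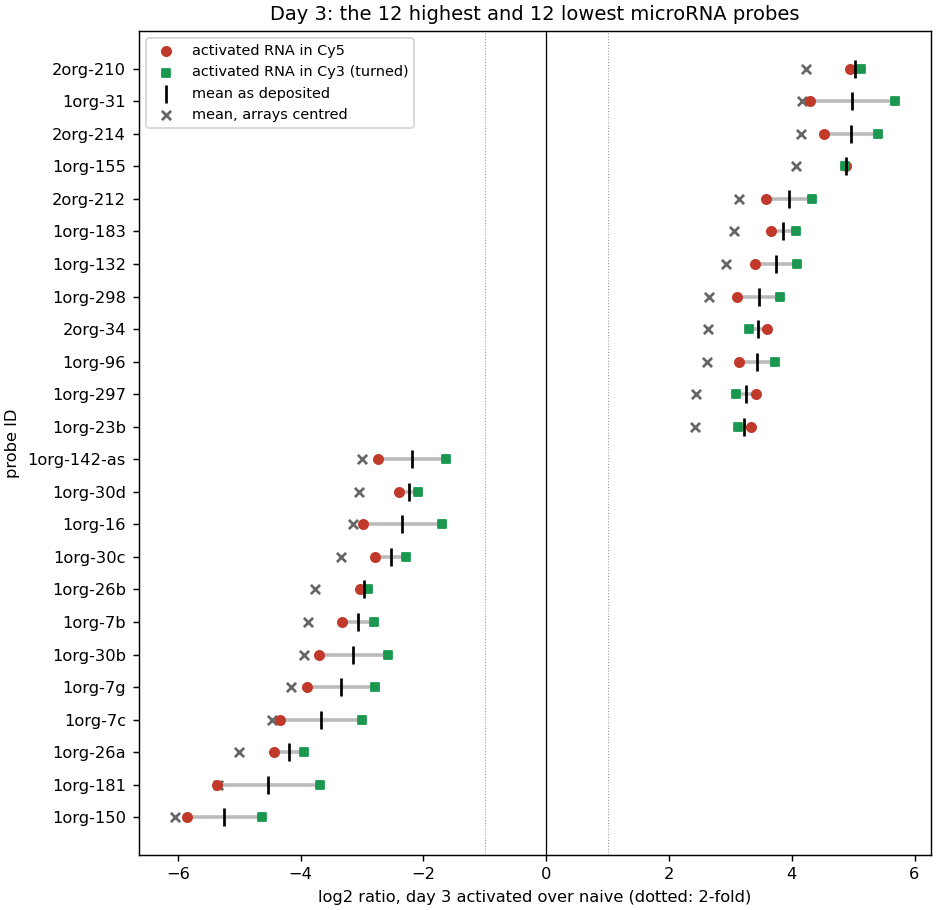
The 12 highest and 12 lowest microRNA probes at day 3, with the Cy5 array as circles, the turned Cy3 array as squares, their mean as a bar and the mean after centring as a cross, on a log2 axis. Both arrays lie beyond 2-fold (dotted) on 1 side for each of the 24 probes, from 1org-150 at -5.24 to 2org-210 at 5.03.

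How far down the lower group lay depended on what the arrays were set against. The U6 small nuclear RNA, a common loading reference for small RNA, was itself at -2.94 and -1.47, and the histidine transfer RNA probe at -3.69 and -3.60. Of the 7 probes for other small RNAs, 4 were at least 2-fold lower and none higher. With each array set to 0 at its U6 probe, 11 of the 12 lowest microRNA probes were still below 0 and 5 of them still at least 2-fold lower, from -3.04 for 1org-150 and -2.32 for 1org-181 over -1.99 for 1org-26a to -1.46 for 1org-7c and -1.14 for 1org-7g. The exception to being below 0 was 1org-142-as (0.016). On this scale, added after the values were seen, the microRNA probes as a whole had a median of 3.03.

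Among the microRNAs linked to lymphocyte activation, 11 of 13 probes were at least 2-fold higher and none lower, as deposited and after centring alike, beside 38.0% and 15.2% higher among all microRNA probes. The list was drawn up with earlier results of these data known, so its direction is no independent evidence. Its median was 3.74, against 0.83 over all microRNA probes. Besides those above, miR-21, known for its induction in dividing and stressed cells, was at 2.08 and 2.81 (1org-21, mean 2.45). The X-linked neighbours miR-221 and miR-222, known regulators of the cell cycle inhibitor p27, were at 2.26 and 2.12 (2org-221) and at 2.48 and 2.80 (2org-222). The pair's values did not overlap between the probes, but on the Cy5 array they were closer than the arrays of 2org-222 to each other. The exceptions were 1org-146 and miR-182. MiR-146a is known as a brake on NF-kB signalling, and its probe was at 0.64 and 0.77 (mean 0.70, or -0.11 centred). Probe 1org-182 was at -0.13 and 0.73.

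The probes of the miR-23/24/27 clusters were likewise all at least 2-fold higher as deposited, 5 of 5, with a median of 1.93, and 4 of 5 after centring. MiR-23a was at 2.50 and 2.67 (1org-23a), 1org-24 at 1.45 and 2.30, 1org-27b at 2.39 and 1.46 and miR-27a at 1.15 and 1.56 (1org-27a, mean 1.36, or 0.54 centred). In every one of these both arrays were above 1. Of the probes for growth and stress microRNAs (miR-34, miR-210, miR-148 and miR-21), 5 of 7 were higher as deposited (38.0% of all microRNA probes were), and 4 of 7 after centring (15.2% of all). Those 4 were 2org-210 and 1org-21, also on the activation-linked list, and 2org-34 and 1org-34c, matched to 1 sequence. The count is therefore not separate from that list. The 1org-148 probe was among those under 2-fold, at 0.30 and 1.15.

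The list of resting lymphocyte microRNAs held 10 probes, of which 8 met the size rule on the lower side and 1 on the higher, and its median was -2.12 (0.087 when set to the U6 probe). After centring 9 of 10 were lower. Among all microRNA probes 12.9% were lower as deposited and 19.9% after centring, which is the background for this list and the families that follow. The higher one was miR-139, at 1.52 and 0.56 (2org-139), which was no longer 2-fold after centring at 0.23. In let-7, 6 of 9 probes were lower around a median of -1.72 (0.48 when set to U6), and 8 of 9 after centring. The miR-30 family had 3 of 5 lower around -2.24 (-0.04 when set to U6) and 4 of 5 after centring. In the miR-15/16 family 3 of 4 were lower around -1.68 (0.53 when set to U6), the fourth being miR-195 at 0.36 and 1.03 (1org-195). None of the 3 miR-29 probes was 2-fold from 0 as deposited, and 2 were lower after centring. The medians of the let-7, miR-30, miR-15/16 and resting lymphocyte lists were thus below -1 as deposited and centred, while set to U6 they lay near or above 0.

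The miR-17 clusters, known for driving lymphocyte proliferation, had values on both sides of 0. The 11 probes had a median of -0.03. Of them 3 were higher and 1 lower, which became 1 and 4 once centred. Among all microRNA probes 38.0% were higher and 12.9% lower, and 15.2% and 19.9% once centred, so the counts of these clusters did not stand out from the background. MiR-18 was at 3.05 and 2.06 (1org-18), miR-19a at 0.58 and 1.44 (2org-19a), 2org-17-5p at 0.08 and 1.61, and miR-20a at -0.002 and -0.058 (1org-20). At the low end were 1org-92 at -1.43 and -0.54 and miR-25 at -1.89 and -1.39 (2org-25). MiR-18 was thus above the rest of its cluster on both arrays. The probes of the related miR-106b/93/25 cluster were all below 0 on both arrays, with 1org-106b at -0.66 and -0.73 and miR-93 at -0.89 and -0.22 (1org-93).

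**Figure D3:**
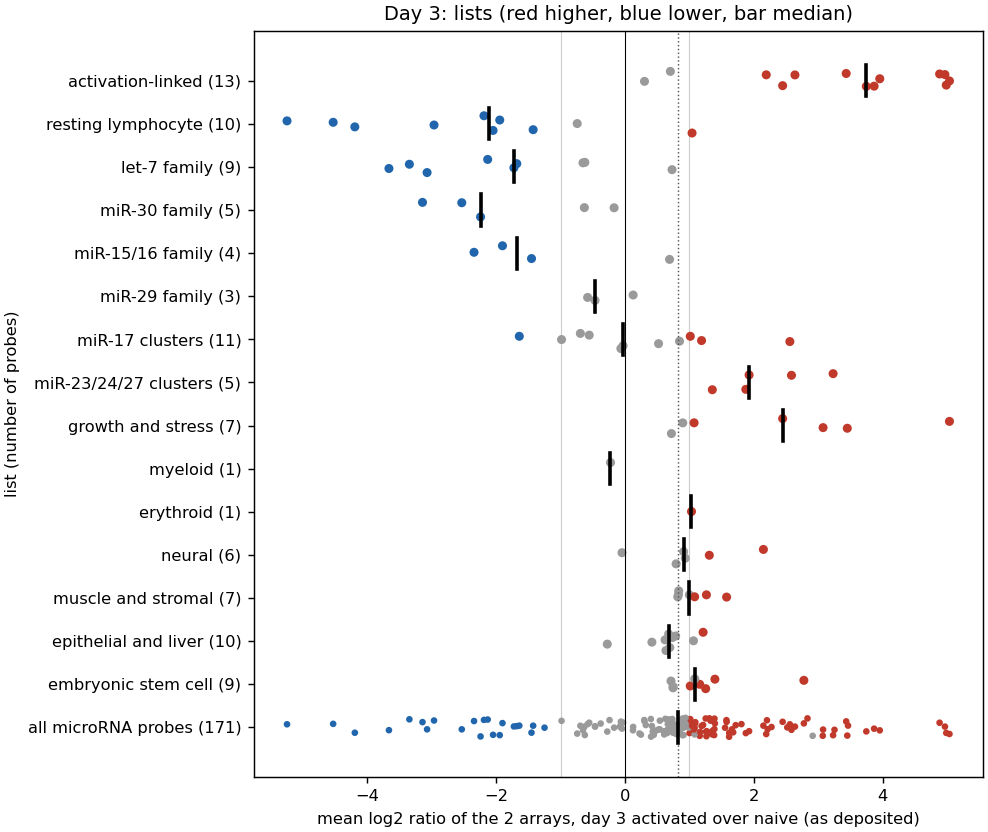
Mean log2 ratio of each probe by list, with list medians as bars and the median of all 171 microRNA probes (0.83) dotted. The activation-linked and miR-23/24/27 lists lie to the right of that median and those of let-7, miR-15/16, miR-30 and resting lymphocytes to the left, while the lists of other tissues sit around it.

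For microRNAs known from other cell types the list medians lay near the median of all probes, while single probes lay further out. The 6 neural probes had a median of 0.92, the 7 of muscle and stroma 1.00, the 10 of liver and epithelium 0.69 and the 9 of embryonic stem cells 1.08. After centring these medians were 0.11, 0.19, -0.12 and 0.27. As deposited 5 of the 9 embryonic stem cell, 3 of the 7 muscle and stromal, 2 of the 6 neural and 1 of the 10 epithelial and liver probes were higher, and none was lower. Among all microRNA probes 38.0% were higher and 12.9% lower as deposited, and 15.2% and 19.9% after centring. With so few probes per list, these counts are not read as a result about other tissues. After centring 1 neural probe was higher, that of miR-129 at 1.63 and 2.67 (1org-129), and 1 epithelial and liver probe lower. The furthest out was miR-292-as of the embryonic stem cell list (1org-292-as, mean 2.78 and centred 1.97), whose arrays differed in sign after centring. The myeloid 2org-223 was at -1.36 and 0.88, opposite in sign on the arrays, and counted as lower after centring at -1.56 and -0.54. The erythroid miR-144 was at 0.53 and 1.52 (1org-144), higher as deposited and not after centring. Ratios of this kind do not show whether such a probe was above background in either RNA, and the part of other cells in the results was not tested.

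Mature sequences gave a further way to group the members. Of the microRNAs with 1 sequence, the 45 higher ones had a median GC content of 47.8%, the 18 lower ones 40.9% and the 38 others 42.9%, with miR-106a counted among both the higher ones and the others because its probes differed in call; the part of base composition in the ratios was not tested. Among the matched probes 61 fell into 21 groups that share a seed. In a typical group (the median) the means spanned 0.89, against 10.28 over all microRNA probes. A range over a few probes is smaller by construction than a range over all, so these spans are not like for like. The interquartile range of all microRNA probes was 1.12. In 1 group, 1org-92, 2org-25 and miR-32 (2org-32), a probe counted as higher stood beside one counted as lower, and after centring in none. Among the groups far from the median of all probes, miR-132 and miR-212 were 0.21 apart, the miR-221 and miR-222 pair 0.45 and the miR-26 pair 1.23. The widest were let-7, from -3.66 for 1org-7c to 0.73 for miR-98, and miR-181, from -4.53 for 1org-181 through -1.94 for 2org-181b to -0.74 for 2org-181c. Probe 2org-181c was at -1.78 and 0.30, so that the arrays did not share a sign.

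Within let-7 the values did not simply follow the closeness of sequence. The mature strands of 1org-7a and 1org-7c differ by 1 base of 22, and so do those of 1org-7a and 1org-7e, yet the means were -2.13, -3.66 and -0.62. Thus 1org-7c stood 1.53 below 1org-7a and 1org-7e 1.51 above it, and the order was the same on both arrays. Other probes of microRNAs 1 base apart lay closer, from 1org-103 and 2org-107 at 1.33 and 1.36 to 1org-99a and 2org-100 at 1.16 and 0.12. Probes matched to 1 sequence could differ as well: 1org-106a was at -0.094 and -0.034 and 2org-106 at 1.24 and 1.14, both matched to miR-106a-5p. Over the 10 probe pairs that differ by 1 base the distance between means ranged from 0.029 to 1.53, around a median of 0.58. The probe sequences were not used here, so how well these probes separate such relatives is unknown.

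**Figure D4:**
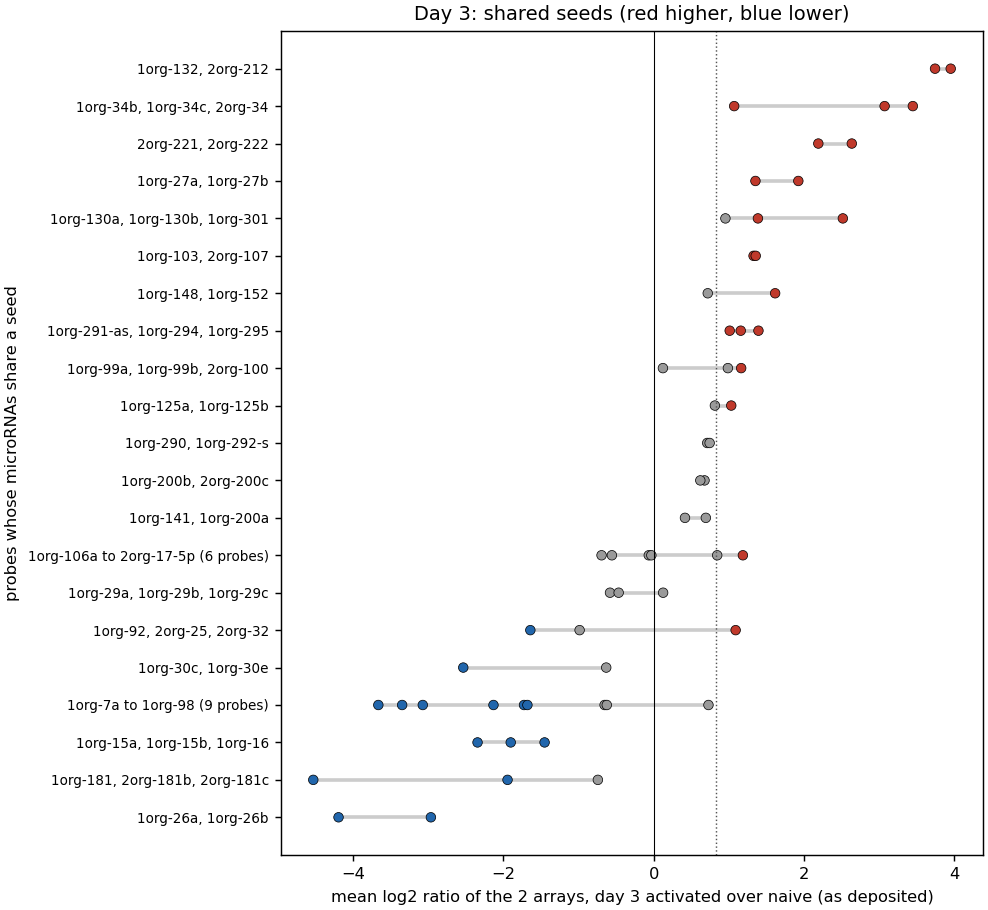
Mean log2 ratio of the probes in each of the 21 groups of microRNAs that share a seed, 1 row per group with its range as a line, and the median of all microRNA probes dotted. The groups of miR-26, miR-181, miR-15/16 and let-7 lie lowest, and 1org-132 with 2org-212 lies highest, at 3.74 and 3.95.

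Both arms of a hairpin had a probe in 12 cases, which sets the 2 strands of a hairpin side by side. Some of these strands have several gene copies, among them those of miR-181a, miR-24, miR-199a and miR-9. Their probes may hold strands from more than 1 transcript. The arms' means were typically 0.35 apart (median) and shared their sign in 11 of 12 hairpins, and in 8 of 12 after centring. The median of all microRNA probes was 0.83 as deposited and 0.02 centred. As deposited, unrelated probes would therefore often share a sign as well. How often unrelated probes did so was not counted, so these counts are no evidence of a link between arms. The miR-142 arms were both lower, with 1org-142-as at -2.75 and -1.63 and 1org-142-s at -2.05 and -0.80. Both let-7d arms were below 0 on both arrays, with 1org-7d at -1.05 and -0.26 and the star arm 1org-7d* at -1.68 and -0.82. Both miR-24 arms were higher, 1org-24 as given above and 1org-189, an earlier name for its other arm, at 1.31 and 1.79.

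The exception in sign was miR-181a. Its other arm was formerly called miR-213, and probe 2org-213 was at -0.19 and 1.85 (mean 0.83, or 0.02 centred), which is 5.36 above 1org-181. The 2 probes did not overlap on any array. The mature strand matched to 1org-181 has 2 gene copies and that matched to 2org-213 has 1, so they need not come from 1 transcript alone. The miR-292 arms were 2.03 apart, with miR-292-as at 4.24 and 1.31 (1org-292-as) and 1org-292-s at -0.08 and 1.57. That distance came from the Cy5 array, and on the Cy3 array the order was reversed.

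**Figure D5:**
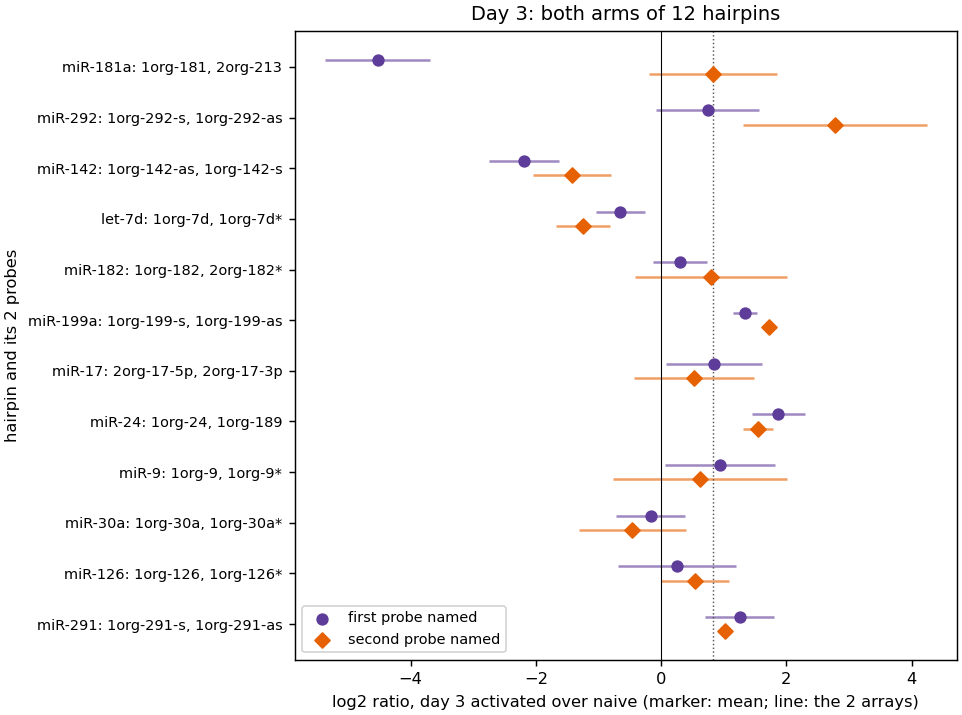
Log2 ratios of both arms of 12 hairpins, with the mean of the 2 arrays as a marker and the values of the arrays as the ends of a line. The arms of miR-181a are 5.36 apart (-4.53 and 0.83) and those of the miR-142 hairpin both lie below 0.

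Grouping by genome position gave 25 clusters of microRNA genes within 10 kb of each other on 1 strand and with at least 2 matched microRNAs. A microRNA with several gene copies was counted in each of their clusters, since its probe cannot tell the copies apart. In a typical cluster (the median) the means spanned 1.09. Clusters whose probes were all at least 2-fold higher as deposited included that of miR-132 with miR-212, that of miR-221 with miR-222 (chrX:19146294-19146971, minus strand) and that of miR-127 with miR-136 in the imprinted Dlk1-Dio3 region (chr12:109563692-109595388, plus strand). In the last, 1org-127 was at 2.73 and 1.82 and miR-136 at 2.22 and 1.01 (1org-136). Only these 2 probes were matched to that cluster, so the rest of the imprinted region is not covered by it. After centring 1org-127 remained 2-fold higher and 1org-136 did not, at 0.80.

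In some clusters the members lay far apart. In the cluster of miR-183, miR-96 and miR-182 (chr6:30165918-30169737, minus strand), 1org-183 and 1org-96 were above 3 on both arrays, while 1org-182 and its other arm 2org-182* (-0.41 and 2.02) were under 2-fold. In that of miR-199a and miR-214 (chr1:162217814-162223477, plus strand), the 3 matched probes were higher as deposited. Of these, 2org-214 stood at 4.96 and 1org-199-s and 1org-199-as at 1.34 and 1.72. Probes 2org-199a and 2org-199b, not matched to a mature sequence, were under 2-fold, with means of 0.49 and 0.65. As deposited, the single cluster with calls in both directions joined let-7c to miR-99a (chr16:77598936-77599750, plus strand), with miR-99a at 1.23 and 1.10 (1org-99a) and 1org-7c at -4.33 and -2.99. After centring 1org-99a was no longer 2-fold higher, and it was the cluster of miR-17 and miR-92 (chr14:115043671-115044506, plus strand) that held calls in both directions, 1org-18 higher at 1.75 and 1org-92 lower at -1.80. Let-7c has a further gene copy beside let-7b on chr15:85706603-85707403, where both probes were lower.

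Some probes had opposite signs on the arrays of the pair, with the stronger signal in Cy5 on both. The 3 probes 1org-200a, 1org-200b and 2org-200c, members of a family known for keeping cells epithelial, were at 3.29, 3.67 and 3.31 on the Cy5 array and at -2.46, -2.31 and -2.06 on the Cy3 array. Their means of 0.42, 0.68 and 0.62 therefore hid values that were far from 0 in opposite directions. Probes miR-99b (1org-99b, 3.28 and -1.31) and 2org-224 (6.22 and -0.40) did the same. The mean of 2org-224 was 2.91, but it was not counted as higher, and likewise 2 further probes with a mean past 2-fold and opposite signs, 1org-122a (-0.22 and 2.35) and 1org-302 (-0.41 and 2.58). By contrast miR-141, whose seed is that of miR-200a, was at 0.05 and 1.34 (1org-141).

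Many calls on the higher side were near the limit of the rule. Of the 65 higher probes 39 had means between 1 and 2, 26 reached 4-fold and 14 reached 8-fold. On the lower side 14 of 22 reached 4-fold and 7 of them 8-fold. The probes just inside on the higher side were 1org-300 (1.00), 1org-291-as (1.01) and 2org-19a (1.01), and just outside were 1org-1d (0.999), 1org-151 (0.99) and 1org-99b (0.99). On the lower side they were 1org-7d* (-1.25), 1org-142-s (-1.42) and 1org-15b (-1.45) inside and 1org-92 (-0.98), 2org-181c (-0.74) and 1org-106b (-0.69) outside. Values were thus sparser around the lower limit than around the higher one, where the bulk of the probes lay. Probe 1org-92 was still close to the lower limit, and it was counted as lower after centring.

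Beside the other times, the leaders of day 3 behaved in different ways. All times used naive cells as the reference, so their values are set side by side only. MiR-155, at 4.88 at day 3, was at 0.47 and 0.22 on the day 10 arrays and at 0.05 overnight, and miR-31 at 0.46 and 0.61 and at -0.998. Probe 2org-210 was at 4.67 and 4.16 at day 10 and at -1.10 overnight. So the day 3 and day 10 values of 2org-210 were both above 4, while those of miR-155 and miR-31 were below 1 at day 10. Probe 1org-150 was at -1.33 and -1.24 at day 10 and -0.28 overnight, and 1org-26a at -0.65 and -0.77 and at -2.78. The overnight value comes from 1 array without a dye swap, with an array median of -1.75, and its direction turned for several probes on centring. Centred, the overnight values were 1.80 for miR-155 (1org-155), 0.75 for miR-31 (1org-31), 0.65 for 2org-210 and 1.47 for 1org-150, all above 0, and -1.03 for 1org-26a.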

How the data were processed

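The deposited table holds 1 log ratio per probe and array, with no missing value. Values were treated as log2 ratios as deposited, made by the authors from both channels of each array; their log base, the scanner and any background correction or normalization were not given in the sources used here. Precision is limited by having 2 arrays, and signal over background is unknown. Groups and dyes came from the labels. Arrays with activated RNA in channel 1 were multiplied by -1 and each dye pair was averaged. Members and lists were chosen with earlier results of these data known. Named probes were the 12 highest and 12 lowest with 1 sign on both arrays, the 6 with the largest distance between centred arrays, the 3 on each side of both limits, both arms of hairpins, and list members past 2-fold; other probes named (exceptions within lists, seed groups and clusters) were chosen after their values were seen. Lists were matched on the number in the probe ID. Alternatives were centring, equal spread, either array alone, other size rules, natural logs, and limma 3.58.1 (R 4.3.3; lmFit and eBayes, two-sided, tested on simulated data). No label says that the arrays came from separate cultures. The p-values rest on the difference in dye effect between the dye pairs, which may be technical, and do not cover the spread of cultures. Sequences came from a RefSeq table.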

Additional observations from a re-analysis of the deposited data

Results flagged for a closer look

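For 6 of the 24 extreme probes, both day 3 arrays lay on 1 side of 0 and both day 10 arrays on the other. The difference between the times was not tested, and both are set against naive cells. The array medians over all microRNA probes turned as well, from 0.20 and 1.42 at day 3 to -0.51 and -0.38 at day 10. Probes outside the extremes could do the same, such as 1org-143 at 0.34 and 1.82, then -1.38 and -0.54. The share of such turns among all probes was not counted, so they are not shown to be particular to the extremes. The means at day 10 were -1.75 for 2org-214 (4.96 at day 3), -0.40 for miR-212 (2org-212, 3.95 at day 3), -0.56 for 1org-132 (3.74 at day 3), -0.49 for 1org-298 (3.46 at day 3) and -0.39 for 1org-297 (3.25 at day 3). In the other direction let-7g (1org-7g) was at 0.46 at day 10 and -3.35 at day 3. After centring the day 10 means were -1.30 for 2org-214 and 0.91 for 1org-7g, and between -0.11 and 0.06 for the other probes named here.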

How the results depend on the processing

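The number of higher probes went from 65 to 26 after centring, 24 with arrays scaled to the same spread, 26 with a 4-fold rule and 31 in limma on centred values, and ran from 57 to 110 on a single array (110 without the Cy5 array). The number of lower probes went from 22 to 34 after centring, 14 with the 4-fold rule and 36 in limma on centred values. Relative to the U6 probe 85.4% of the microRNA probes were higher and 2.92% lower. Both counts stayed within 1.5 times under a 2-fold rule on each array, natural logs and limma as deposited. Centring moved the list medians to 2.93 (activation-linked), -2.93 (resting lymphocyte), -2.53 (let-7), -3.05 (miR-30), -2.49 (miR-15/16), -1.28 (miR-29), -0.84 (miR-17 clusters), 1.11 (miR-23/24/27), 1.64 (growth and stress), 0.21 (erythroid) and -0.12 (epithelial and liver). Scaling moved them to 2.44 (activation-linked), -2.28 (let-7), -2.66 (miR-30), -1.17 (miR-29), -0.82 (miR-17 clusters), 0.87 (miR-23/24/27), 1.34 (growth and stress), 0.16 (erythroid) and -0.24 (epithelial and liver). The U6 scale, chosen after seeing the data, gave 5.95 (activation-linked), 0.087 (resting lymphocyte), 0.48 (let-7), -0.036 (miR-30), 0.53 (miR-15/16), 1.74 (miR-29), 2.17 (miR-17 clusters), 4.13 (miR-23/24/27), 4.65 (growth and stress), 1.96 (myeloid), 3.23 (erythroid), 3.13 (neural), 3.20 (muscle and stromal), 2.89 (epithelial and liver) and 3.29 (embryonic stem cell); the resting lymphocyte, let-7 and miR-15/16 medians thereby turned sign. On single arrays the medians ran from -0.529 to 0.012 for miR-29, -0.094 to -0.034 for the miR-17 clusters and 2.30 to 2.39 for miR-23/24/27. Wider ranges were -1.36 to 0.88 (myeloid, turning sign), 0.12 to 1.74 (neural), 0.34 to 1.82 (muscle and stromal), 0.16 to 1.80 (embryonic stem cell), -2.78 to -1.68 (resting lymphocyte) and -2.11 to -1.24 (miR-15/16). These shifts follow from the construction of each scale. Of 41 named probes, 35 kept their sign after centring, scaling and on either array, among them all 24 extremes. The extremes were picked for 1 sign on both arrays and for means far from 0. Their kept sign was thus largely fixed by the selection and is no separate check. No paired analysis was possible because each array already holds both RNAs and the dye pair was counted as 1 replicate.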
